A study of Homo sapiens with 16 samples.

Results

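The FADS gene cluster on human chromosome 11 holds FADS1, FADS2 and FADS3, which code for fatty acid desaturases. Every 2000 bp window around an annotated transcription start site (TSS) that carried 1 of these 3 gene symbols was taken, and each alternative start was kept apart. This gave 49 of the 272902 TSS windows of the data set, 21 for FADS1, 15 for FADS2 and 13 for FADS3. The 3 genes were chosen by measured values, because the ChIP signal at FADS1 was known to be higher in LEO1 knockout cells than in wild type. The ChIP levels, differences and counts of calls of the cluster are therefore a description from which nothing is inferred, and p-values of its windows are given for the input DNA only.

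Fatty acid desaturases add double bonds to the chain of a fatty acid. FADS2 is the delta-6 desaturase that takes the first step from the dietary essential fatty acids to the long-chain polyunsaturated ones, elongases then lengthen the chain, and FADS1 is the delta-5 desaturase that makes arachidonic acid and eicosapentaenoic acid. FADS3 is a related desaturase that acts on the sphingoid base of ceramides. FADS1 and FADS2 lie head to head and share a control region that responds to sterol regulatory element binding proteins, and common variants across the cluster are linked to blood lipid levels.

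The cells were BJ-5ta, an hTERT-immortalized human fibroblast cell line, either wild type (WT) or ΔLEO1. The ΔLEO1 cells were 1 clone in which CRISPR/Cas9 was directed at the first exons of LEO1, a subunit of the PAF1 complex that accompanies RNA polymerase II. Both genotypes were cultured in 10% serum, in which cells proliferate, or for 10 days in 0.1% serum, which arrests them in quiescence. Each combination had ChIP and input libraries marked A and B, and nothing in the labels says that A and B were separate cultures, so any p-value below measures the spread between these libraries, which may be technical. The antibody is labelled H3, and per the methods it recognizes H3K9me2, the dimethyl mark on histone H3 lysine 9 that is found in silent chromatin. Input is the same sonicated chromatin without the antibody. Counts of DNA fragments hold no RNA level, so the fibroblast label was not checked against marker genes.

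Replicate A of the ΔLEO1 10% serum ChIP was left out, because its TSS windows summed to 54 reads, so that condition is 1 ChIP library (replicate B). The other 7 ChIP libraries held 2153836 to 3696942 reads over TSS windows and the 8 inputs 3267811 to 9238282. Levels are given as CPM, reads per 1000000 reads over TSS windows after scaling with trimmed mean of M-values (TMM) factors. The windows around the start of LEO1 itself still held input reads in ΔLEO1. At transcript ENST00000315141 the 0.1% serum inputs gave 3.75 and 2.82 CPM in ΔLEO1 and 3.94 and 3.78 CPM in wild type (edgeR Benjamini-Hochberg adjusted p = 0.989), so these counts do not check the genotype.

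The windows spanned chr11:61791980-61893051 in hg38 coordinates, 101.071 kb, and fell into 12 stretches of overlapping windows. RefSeq (GRCh38.p14) places FADS1 on the minus strand at chr11:61799627-61817003, FADS2 on the plus strand at chr11:61816203-61867354 and FADS3 on the minus strand at chr11:61873526-61892224. All 3 genes matched by symbol in the RefSeq promoter table, where FADS2 has 2 entries. The 300 bases around 1 RefSeq start of each gene, 3 of the 4 entries, are shown, because few ChIP reads were found over the starts of FADS1 and FADS2. Capitals mark each CG dinucleotide.
FADS1 promoter (chr11:61816954-61817253, minus strand): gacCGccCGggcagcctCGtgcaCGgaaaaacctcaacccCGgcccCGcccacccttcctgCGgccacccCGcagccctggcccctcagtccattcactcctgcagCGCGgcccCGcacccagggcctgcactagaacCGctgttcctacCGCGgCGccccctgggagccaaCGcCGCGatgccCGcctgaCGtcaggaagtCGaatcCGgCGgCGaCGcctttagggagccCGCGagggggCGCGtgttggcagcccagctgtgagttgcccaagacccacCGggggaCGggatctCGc
FADS2 promoter (chr11:61815953-61816252, plus strand): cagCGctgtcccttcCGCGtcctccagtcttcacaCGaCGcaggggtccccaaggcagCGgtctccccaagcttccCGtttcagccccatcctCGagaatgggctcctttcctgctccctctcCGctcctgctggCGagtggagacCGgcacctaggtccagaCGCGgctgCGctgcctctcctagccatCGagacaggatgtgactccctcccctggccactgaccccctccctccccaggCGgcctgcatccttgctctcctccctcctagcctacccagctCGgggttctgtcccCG
FADS3 promoter (chr11:61891496-61891795, minus strand): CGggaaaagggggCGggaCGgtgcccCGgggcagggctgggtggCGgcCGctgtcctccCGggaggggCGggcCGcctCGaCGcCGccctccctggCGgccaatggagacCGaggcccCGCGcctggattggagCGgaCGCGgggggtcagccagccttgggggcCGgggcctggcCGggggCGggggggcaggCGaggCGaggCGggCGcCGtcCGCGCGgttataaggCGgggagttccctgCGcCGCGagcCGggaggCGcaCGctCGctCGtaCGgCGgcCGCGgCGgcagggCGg

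The FADS1 promoter held 32 CG dinucleotides, more than 81.1% of the 35116 promoters of the table, and the FADS3 promoter held 45, more than 96.5%. The FADS2 promoter shown held 18, against a median of 14 over all promoters. Searched on both strands, the GC box GGGCGG occurred 2 times in the FADS1 promoter, 5 times in the FADS3 promoter and 0 times in the FADS2 promoter shown, and 45% of all promoters of the same length held it. The CCAAT box occurred 2 times in the FADS3 promoter and in neither of the other promoters shown, against 34.6% of all promoters. The second FADS2 entry, at chr11:61816154-61816453, held 13 CG dinucleotides, 1 GC box and 1 CCAAT box. The E-box CACGTG (7.26% of promoters) and the sterol element TCACNCCAC (1.13%) were in none of the 4 entries, which says only that these letters are not in these 300 bases.

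The largest ChIP level of the cluster was measured inside FADS1 in ΔLEO1 cells in 0.1% serum. The window of transcript ENST00000496123, at chr11:61811483-61813483, is centred 4.52 kb into FADS1 from its RefSeq start. In 0.1% serum it held 13.6 CPM (51 reads) and 13.4 CPM (34 reads) in the ΔLEO1 replicates A and B, and 5.74 CPM (19 reads) and 2.57 CPM (7 reads) in wild type. Both ΔLEO1 libraries lay above both wild-type libraries, and the lowest library of all was wild type replicate B. The ΔLEO1 mean of 13.5 ± 0.110 CPM (SD, n = 2) was 3.25 times the wild-type mean of 4.16 ± 2.24 CPM. The fitted log2 fold change was 1.51 ± 0.28 (SE). Among the 48 windows with distinct coordinates this window ranked 1st in both ΔLEO1 libraries, and it ranked 2nd and 11th in wild type.

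In 10% serum the same window held 7.95 CPM (17 reads) in the ΔLEO1 library and 7.26 CPM (19 reads) and 5.49 CPM (17 reads) in wild type. The ΔLEO1 library lay just above the wild-type libraries, by a log2 fold change of 0.31 ± 0.40 (SE), which is smaller than its error. Within wild type the level in 0.1% serum differed from that in 10% serum by a log2 fold change of -0.48 ± 0.33, with the range of the 0.1% serum libraries reaching into that of 10% serum. The genotype difference in 0.1% serum exceeded that in 10% serum by 1.20 ± 0.48 on the log2 scale, a value that rests on 1 ΔLEO1 library in 10% serum. For this difference between differences edgeR called 0 of the 159524 windows tested, with 9012 at an unadjusted p under 0.05. The wild-type 0.1% serum libraries enter both the genotype and the serum difference, which are not independent.

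**Figure D1:**
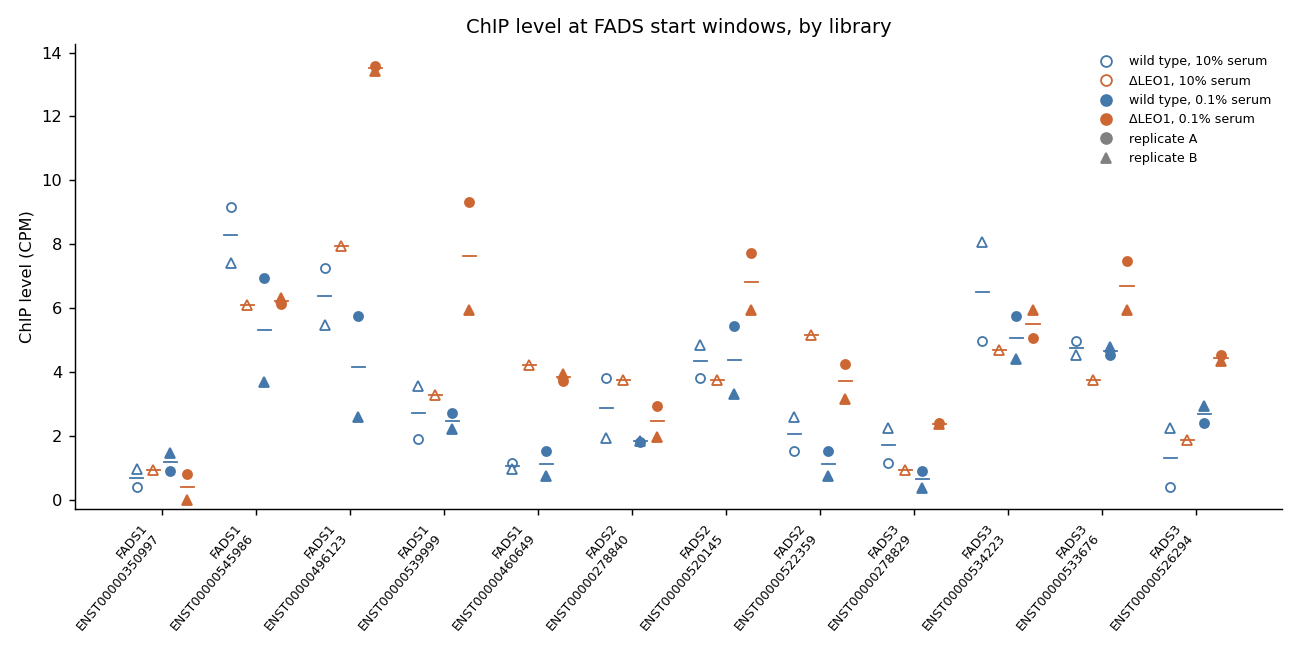
ChIP level in CPM (vertical axis) at 12 FADS windows, named by gene and transcript, in each of the 7 ChIP libraries; open symbols are 10% serum, filled symbols 0.1% serum, blue wild type, orange ΔLEO1, circles replicate A, triangles replicate B and short lines group means. The ΔLEO1 0.1% serum libraries stand at 13.6 and 13.4 CPM at FADS1 ENST00000496123, where no other library is above 7.95 CPM.

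The input DNA at this window was measured in all 8 input libraries. In 0.1% serum the inputs held 5.62 and 5.53 CPM in ΔLEO1 and 4.78 and 4.79 CPM in wild type, a log2 fold change of 0.21 ± 0.25 (SE; edgeR adjusted p = 0.989). In 10% serum they held 2.82 and 5.18 CPM in ΔLEO1 and 4.46 and 5.85 CPM in wild type, a log2 fold change of -0.22 ± 0.26 (edgeR adjusted p = 0.914). The low value of 2.82 CPM came from replicate A, the shallowest input, with 9 reads in the window.

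ChIP enrichment was expressed as the ChIP level of a library over the mean input level of its group. In 0.1% serum the leading FADS1 window reached 2.44 and 2.41 in ΔLEO1 and 1.20 and 0.538 in wild type, so the ratio of the group means was 2.79. In 10% serum the ratio was 1.99 in ΔLEO1 and 1.41 and 1.06 in wild type. With ChIP and input libraries in 1 fit, the 0.1% serum difference of ChIP over input was 1.35 ± 0.39 on the log2 scale.

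The neighbouring start further into FADS1, ENST00000539999 at chr11:61809885-61811885, shares 402 bp with the leading window, so some reads may count in both. It held 9.33 and 5.93 CPM (35 and 15 reads) in ΔLEO1 in 0.1% serum and 2.72 and 2.21 CPM (9 and 6 reads) in wild type, a log2 fold change of 1.44 ± 0.34. The ΔLEO1 libraries again lay above both wild-type libraries, although they differed from each other by more than the wild-type libraries did. In 10% serum the ΔLEO1 level of 3.28 CPM lay between the wild-type levels of 1.91 and 3.55 CPM. In input the log2 fold changes were 0.40 ± 0.26 in 0.1% serum and 0.01 ± 0.28 in 10% serum (edgeR adjusted p = 0.940 and 0.999).

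Further in, the window of ENST00000536991 (chr11:61805528-61807528), centred 10.5 kb into FADS1, had too few ChIP reads to be tested. In 0.1% serum it held 1.60 and 3.56 CPM (6 and 9 reads) in ΔLEO1. Wild type held 1.81 and 0 CPM (6 and 0 reads), so the groups overlapped. In 10% serum its ΔLEO1 level of 2.81 CPM lay between the wild-type levels of 1.91 and 2.90 CPM. At 12.3 kb into FADS1, the window of ENST00000460649 (chr11:61803680-61805680), which overlaps it, was higher in ΔLEO1 in both sera. ENST00000460649 held 3.73 and 3.95 CPM (14 and 10 reads) in ΔLEO1 in 0.1% serum. Wild type held 1.51 and 0.735 CPM (5 and 2 reads) there, a log2 fold change of 1.29 ± 0.51. In 10% serum it held 4.21 CPM (9 reads) in ΔLEO1 and 1.15 and 0.968 CPM (3 reads in each library) in wild type, a log2 fold change of 1.49 ± 0.65. With so few reads the errors were wide. Its input in 10% serum was uneven, at 8.14 CPM in ΔLEO1 replicate A and 3.65 CPM in replicate B (log2 fold change 0.31 ± 0.29, edgeR adjusted p = 0.883).

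Closer to the FADS1 start the genotype difference was small. The window of ENST00000545986, centred 2.35 kb into the gene at chr11:61813649-61815649, had the highest wild-type level of the cluster in 10% serum replicate A, at 9.17 CPM, with 7.42 CPM in replicate B. In 0.1% serum it held 6.13 and 6.32 CPM in ΔLEO1 and 6.95 and 3.68 CPM in wild type, so the ΔLEO1 values fell between the wild-type ones (log2 fold change 0.16 ± 0.31). In 10% serum the ΔLEO1 level of 6.08 CPM lay below both wild-type libraries (log2 fold change -0.40 ± 0.41). The 4 overlapping windows between 1.71 and 1.89 kb into FADS1 had 0.1% serum log2 fold changes of 0.22 to 0.23. In the plot along the cluster the ΔLEO1 line in 0.1% serum steps up from these windows to the leading window.

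**Figure D2:**
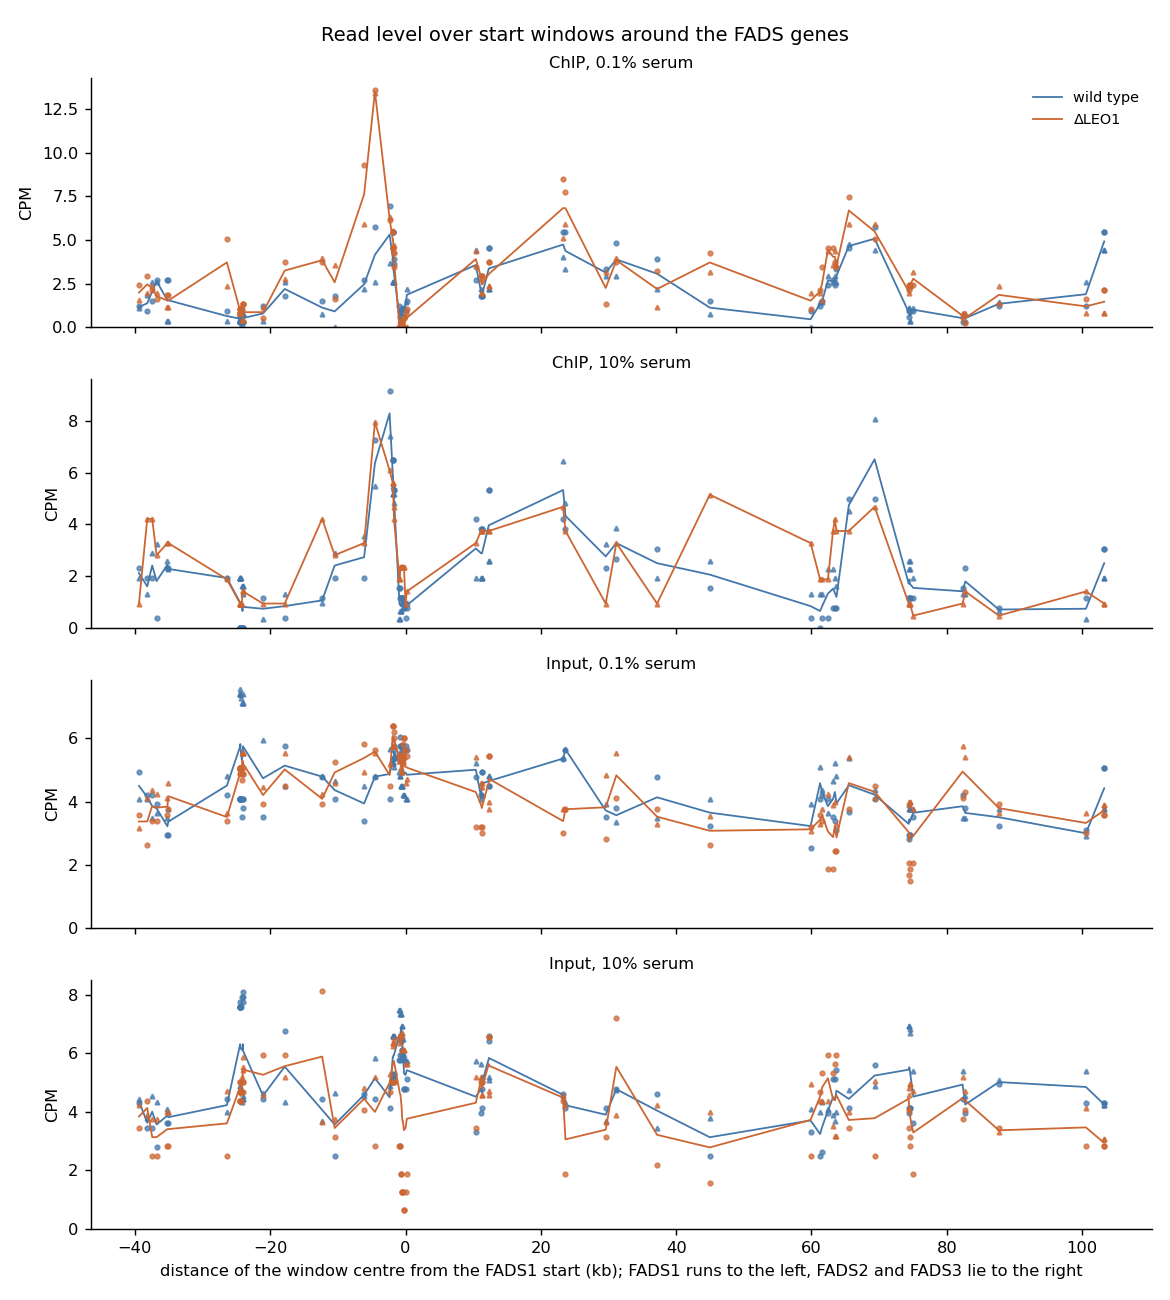
Read level in CPM (vertical axes) at every distinct TSS window in and next to the FADS genes, plotted against the distance of the window centre from the FADS1 start in kb; points are libraries (circles replicate A, triangles replicate B), lines join group means, blue is wild type and orange ΔLEO1. The ΔLEO1 line peaks at 13.5 CPM at the leading FADS1 window in ChIP in 0.1% serum, while the input lines there stay between 4.00 and 5.58 CPM.

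Over the starts of FADS1 and FADS2 themselves almost no ChIP reads were found. The 14 windows with a TSS between 61816108 and 61817197, held 0 to 6 reads in any ChIP library. ΔLEO1 0.1% serum replicate B held 0 reads in all 14, which allows up to 1.19 CPM in each, and replicate A held 0 to 4 reads. Wild type in 0.1% serum held 2 to 5 reads in replicate A and 0 to 6 in replicate B. None of these 14 windows passed the filter on low counts, so no fold change is given for them. The same windows were well covered by input, with 28 to 69 reads and 4.07 to 7.48 CPM in 7 of the 8 input libraries. The exception was ΔLEO1 10% serum input replicate A, which held 2 to 9 reads and 0.626 to 2.82 CPM there.

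That low input library bears on the 10% serum comparison of input at these starts. With both ΔLEO1 libraries, 0 of the 49 FADS windows were called. With replicate A alone on the ΔLEO1 side, 8 of the start windows were called lower, by log2 fold changes of -2.64 to -1.74, and 1368 windows were called over the whole table. With replicate B alone, 0 FADS windows were called. Over the promoters with 36 or more CG dinucleotides, replicate A had a median of 3.76 CPM and replicate B 4.24 CPM. The wild-type inputs in 10% serum had 4.62 and 4.98 CPM. In 0.1% serum the inputs had medians of 3.66 and 3.63 CPM in wild type and 3.75 and 4.12 CPM in ΔLEO1, so a median near 3.76 CPM was not particular to replicate A. The part of CG content in the low value at FADS1 was not tested.

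The 5 windows at the start of FADS3, with a TSS between 61891381 and 61892051, held 1 to 9 ChIP reads and were not tested either. In 0.1% serum ΔLEO1 held 8 to 9 reads in replicate A and 5 to 8 in replicate B, and wild type held 2 to 3 and 1 to 3. ChIP levels over CG-rich promoters were low across the genome. Among RefSeq promoters matched to a window, the median ChIP level per library was 5.15 to 5.60 CPM for those with 0 to 5 CG dinucleotides and 1.19 to 1.87 CPM for those with 36 or more.

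FADS2 windows outside its start had mostly small differences. The exception in size was ENST00000522359, inside FADS2 at chr11:61860973-61862973, which held 4.26 and 3.16 CPM (16 and 8 reads) in ΔLEO1 and 1.51 and 0.735 CPM (5 and 2 reads) in wild type in 0.1% serum. The ΔLEO1 library was also the highest in 10% serum, at 5.15 CPM (11 reads) against 1.53 and 2.58 CPM. Its log2 fold changes were 1.28 ± 0.47 in 0.1% serum and 1.07 ± 0.57 in 10% serum. In input this window gave -0.19 ± 0.31 and 0.01 ± 0.24 (edgeR adjusted p = 0.996 and 0.998).

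The FADS2 windows with the most ChIP reads, ENST00000521571 and ENST00000520145, overlap at chr11:61839297-61841642. ENST00000520145 held 7.73 and 5.93 CPM in ΔLEO1 and 5.44 and 3.31 CPM in wild type in 0.1% serum (log2 fold change 0.57 ± 0.32), and 3.74 CPM in ΔLEO1 against 3.82 and 4.84 CPM in 10% serum (-0.19 ± 0.50). Its input went the other way in 0.1% serum, at 3.75 and 3.77 CPM in ΔLEO1 and 5.63 and 5.66 CPM in wild type, a log2 fold change of -0.55 ± 0.26 that was not called (edgeR adjusted p = 0.921). The lowest FADS2 difference was at ENST00000523235, with log2 fold changes of -0.33 ± 0.47 in 0.1% serum and -0.95 ± 0.74 in 10% serum on 2 to 13 reads per library. The window of ENST00000574708 carries the FADS2 symbol but lies at chr11:61791980-61793980, beyond the far end of FADS1 and over the start of FEN1, and it held 0 to 5 ChIP reads per library.

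All 6 tested FADS3 windows had a higher fitted level in ΔLEO1 in 0.1% serum, by log2 fold changes of 0.07 to 0.62. The largest was ENST00000526294, with 4.53 and 4.35 CPM in ΔLEO1 and 2.42 and 2.94 CPM in wild type (log2 fold change 0.62 ± 0.42). The window with the most reads, ENST00000534223, held 5.06 and 5.93 CPM in ΔLEO1 and 5.74 and 4.41 CPM in wild type, so its groups overlapped (0.07 ± 0.33). Of the overlapping windows within the gene, ENST00000534426, ENST00000531956 and ENST00000529404 had larger log2 fold changes in 10% serum, 0.97 ± 0.60, 1.23 ± 0.59 and 1.21 ± 0.62. They overlap one another, and wild type held 2 to 7 reads in each library there in 10% serum.

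Counted over the cluster by symbol, 25 of the 49 windows passed the filter in ChIP, 10 of FADS1, 9 of FADS2 and 6 of FADS3. The other 24 had too few reads. Of the FADS1 windows, ENST00000448607 (chr11:61828309-61830309) and ENST00000421879 (chr11:61828318-61830318) carry the symbol but lie inside FADS2. A window that passes through the group in which it is high had to differ, so the counts describe these 25 windows only. In 0.1% serum 21 of the 25 had a positive and 4 a negative log2 fold change, with a median of 0.36 against -0.01 over all 159524 windows tested. edgeR called 2 of them, the overlapping FADS1 windows ENST00000496123 and ENST00000539999, both higher in ΔLEO1, where 0.347% of all windows tested were called. DESeq2 called 0 of the 25 and 0 windows in the whole table. Both ΔLEO1 libraries lay above both wild-type libraries in 13 of the 25 and below both in 0 of the 25, where 19.7% and 21.1% of all windows tested did so. Over all 49 windows the counts were 20 above and 11 below, and the 11 were untested windows over the starts of FADS1 (7) and FADS2 (4). The shares above cover tested windows only. No share that includes untested windows was counted, so nothing is read from the counts over all 49. The rule chose FADS1 on this contrast, so nothing is read from these shares.

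The calls at FADS1 changed when single libraries were left out. Without wild type 0.1% serum replicate B, the leading window had a log2 fold change of 1.15 and 0 FADS windows were called. Without wild type replicate A it had 2.11, and only the leading window was called, as was the case without ΔLEO1 replicate A, at 1.51. Without ΔLEO1 replicate B both windows were called. The number of windows called in the whole table fell from 554 to between 47 and 145 with 1 library left out.

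In 10% serum 12 of the 25 windows had a positive and 13 a negative log2 fold change, with a median of -0.02. edgeR and DESeq2 called 0 of them, where edgeR called 0.0295% of all windows. Between sera in wild type, 9 were higher and 16 lower in 0.1% serum, and edgeR and DESeq2 called 0, where edgeR called 0.27% of all windows. Of the 10 tested windows with the FADS1 symbol, 9 were lower in 0.1% serum in wild type (median -0.42), while FADS3 had 4 of 6 higher (median 0.62).

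**Figure D3:**
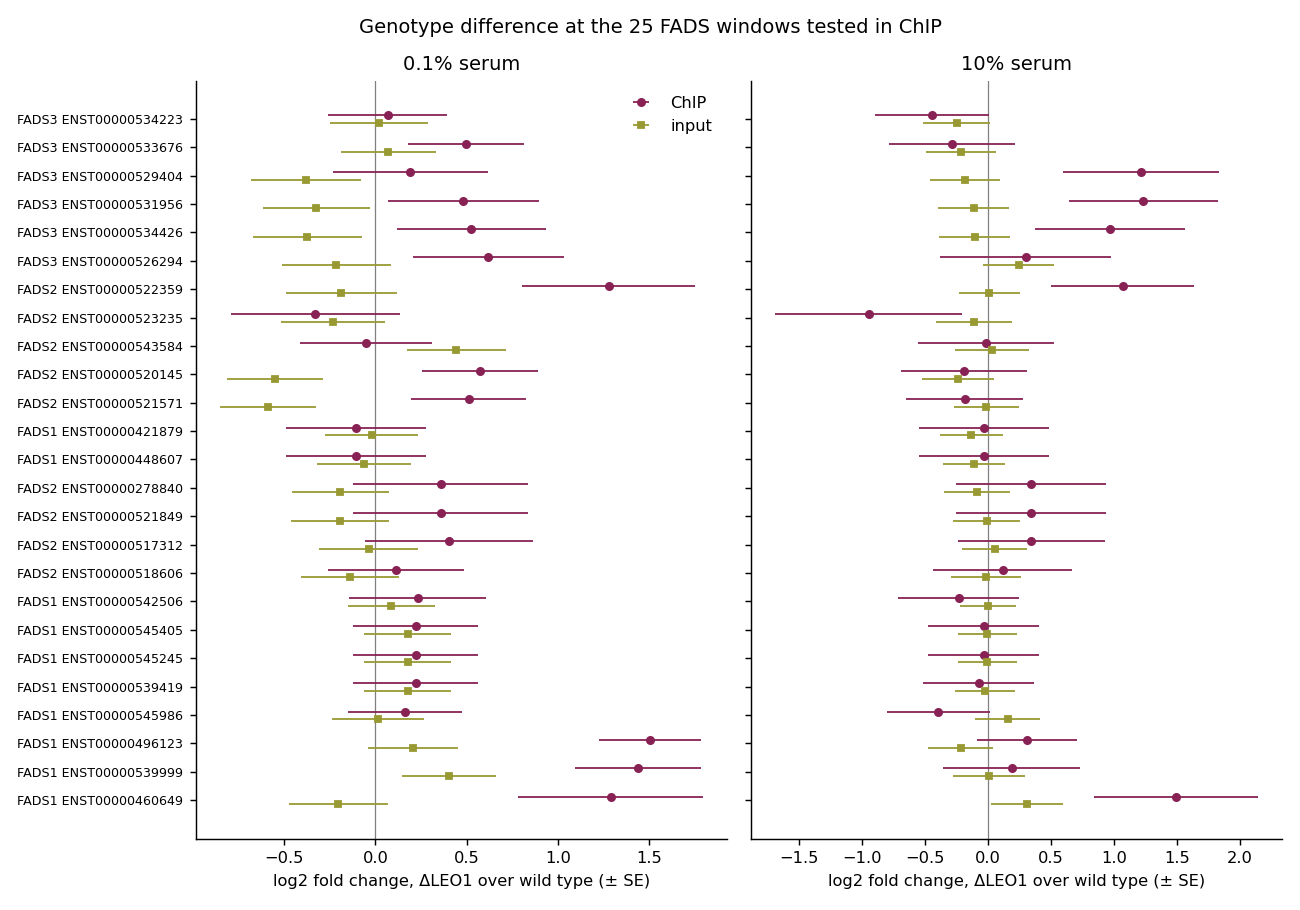
Log2 fold change of ΔLEO1 over wild type (horizontal axes, with standard errors as bars) at the 25 FADS windows tested in ChIP, in 0.1% serum (left) and 10% serum (right); circles are ChIP and squares input. In 0.1% serum the FADS1 windows ENST00000496123, ENST00000539999 and ENST00000460649 and the FADS2 window ENST00000522359 lie between 1.28 and 1.51 in ChIP, with input values between -0.20 and 0.40.

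All 49 windows were tested in input, which the choice of the genes did not use. In 0.1% serum 23 windows had a positive and 26 a negative log2 fold change, between -0.59 and 0.44. edgeR called 0 of them, with 2 at an unadjusted p under 0.05, both lower in ΔLEO1, and DESeq2 called 0 with 0 under 0.05. The smallest edgeR adjusted p was 0.895, and 0% of the 238006 windows tested were called, with 12688 at an unadjusted p under 0.05 (0 and 1252 by DESeq2). In 10% serum 9 were positive and 40 negative, between -0.42 and 0.33, and edgeR and DESeq2 called 0 with 0 at an unadjusted p under 0.05. The smallest edgeR adjusted p was 0.816, where 0.0021% of all windows were called. Median input levels of the cluster lay between 3.29 and 5.53 CPM per library and ChIP medians between 1.34 and 3.04 CPM. Within a library the input windows ranged most widely in ΔLEO1 10% serum replicate A, from 0.626 to 8.14 CPM, and least widely in ΔLEO1 0.1% serum replicate B, from 3.06 to 5.77 CPM.

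The genes around the cluster did not share one direction. Within 200 kb of the outermost FADS starts lay 71 windows without a FADS symbol, with 14 other named genes among them. Some, such as those of MIR1908 inside FADS1 and MIR6746 inside FADS3, overlap FADS windows, so some reads may count in both. Of the 71 windows, 40 were tested in ChIP. In 0.1% serum 15 had a positive and 25 a negative log2 fold change, with a median of -0.17, against 0.36 for the FADS windows. Both medians are over windows, so genes with many overlapping starts count repeatedly. At the window with the most ChIP reads per gene, 6 of the 10 tested genes were positive and 4 negative, with a median of 0.24. edgeR called 0 of the 40, with 5 at an unadjusted p under 0.05, and DESeq2 called 0 with 1. Of all windows tested in this contrast, edgeR had 10.7% at an unadjusted p under 0.05.

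TMEM258, which codes for a subunit of the oligosaccharyltransferase complex, lies on the far side of FEN1. Its window at chr11:61789603-61791603 held 5.06 and 2.37 CPM (19 and 6 reads) in ΔLEO1 in 0.1% serum. Wild type held 0.906 and 0.368 CPM there, on only 3 and 1 reads. The window gave a log2 fold change of 1.76 ± 0.53, larger than that of FADS1 but with a wider error, and was not called. In 10% serum it gave -0.03 ± 0.72. MIR1908, a microRNA gene inside FADS1 and 2.76 kb from the leading window, gave 0.36 ± 0.36 in 0.1% serum and -0.14 ± 0.47 in 10% serum.

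On the FADS3 side, RAB3IL1, which codes for an exchange factor of Rab GTPases, held 2.13 and 0.790 CPM (8 and 2 reads) in ΔLEO1 in 0.1% serum. Wild type held 5.44 and 4.41 CPM (18 and 12 reads) there, a log2 fold change of -1.32 ± 0.44. FTH1, the heavy chain of ferritin, gave -0.68 ± 0.39 and BEST1, a chloride channel, -0.21 ± 0.32. RNU6-1243P, which lies between RAB3IL1 and BEST1, went the other way, at 0.42 ± 0.29. On the other side DAGLA, which makes the endocannabinoid 2-arachidonoylglycerol, gave 0.84 ± 0.41 in 0.1% serum and -1.09 ± 0.54 in 10% serum, and MYRF, a membrane-bound transcription factor, gave 0.12 ± 0.49. FEN1, a flap endonuclease of DNA replication, had 0 to 5 ChIP reads per library at its window and was not tested. The deposited peak regions held none within the cluster, and the nearest lay 118.903 kb beyond FADS3 and 247.178 kb beyond the FADS1 side.

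**Figure D4:**
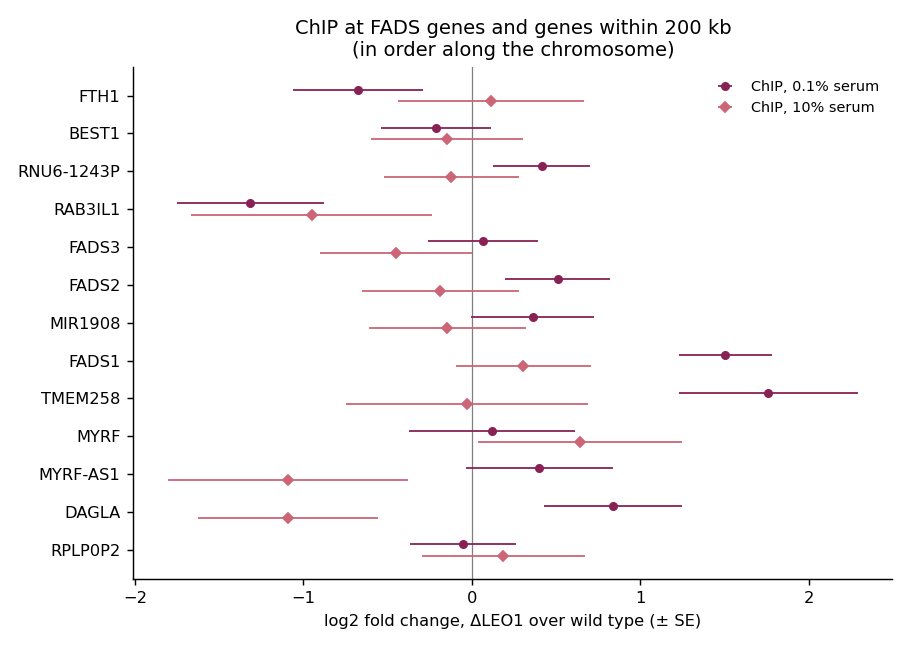
Log2 fold change of ΔLEO1 over wild type in ChIP (horizontal axis, with standard errors as bars) for the window with the most ChIP reads of each gene, FADS genes and genes within 200 kb, in order along the chromosome; circles are 0.1% serum and diamonds 10% serum. FADS1 (1.51) and TMEM258 (1.76) have the largest values in 0.1% serum and RAB3IL1 (-1.32) the smallest.

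Genes that work with the desaturases were read at the window with the most ChIP reads per gene. Of 42 genes in 5 lists, 35 were tested in ChIP, and in 0.1% serum 20 had a positive and 15 a negative log2 fold change, with a median of 0.05. edgeR called 0 of the 35 in 0.1% serum, with 2 at an unadjusted p under 0.05, and 0 in 10% serum, with 4, where 10.7% and 8.39% of all windows tested had such a p. DESeq2 called 0 in both, with 0 and 1. The 4 genes in 10% serum, named after their values were seen, were ELOVL5 (1.45 ± 0.42), LPCAT3 (1.36 ± 0.55), PTGS2 (0.85 ± 0.39) and ACSL3 (0.73 ± 0.37), each on 1 ΔLEO1 library. In 0.1% serum the largest rise in value was CYB5R1, a cytochrome b5 reductase (0.66 ± 0.37), followed by ELOVL7, a fatty acid elongase (0.62 ± 0.27), and neither was called. The largest falls in value in 0.1% serum were CYB5R2 (-0.85 ± 0.32) and ELOVL3 (-0.61 ± 0.35).

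By list, the 12 tested genes of the elongation cycle had 7 positive and 5 negative values in 0.1% serum (median 0.09), and the 6 cytochrome b5 and reductase genes that pass electrons to desaturases had 3 and 3 (median 0.02). The other desaturases had 1 positive and 2 negative values, since SCD and SCD5, the stearoyl-CoA desaturases, were below the filter. Of the transcriptional regulators, 2 were positive and 5 negative (median -0.36), among them SREBF2, a sterol regulatory element binding protein (-0.36 ± 0.32), and SREBF1 was below the filter. All 7 tested users of polyunsaturated fatty acids were positive in 0.1% serum (median 0.40), led in value by LPCAT3, a lysophospholipid acyltransferase (0.61 ± 0.35), and ACSL3, an acyl-CoA synthetase (0.47 ± 0.29), and 5 of the 7 were positive in 10% serum. In input, edgeR called 0 of the 40 genes tested in either serum, with 1 and 2 at an unadjusted p under 0.05, and DESeq2 called 0 with 0.

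The pattern of the leading FADS1 window over the 7 ChIP libraries was compared with that of 100089 windows in 28559 genes that had at least 10 reads on average. The most alike by Pearson's r of log2 CPM were GAS7 (0.98), WDR59 (0.98), NCOR1 (0.98), AKAP9 (0.98) and UFM1P1 (0.98). Of these, GAS7, a growth arrest specific gene, held 8.53 and 8.69 CPM in ΔLEO1 and 5.44 and 4.04 CPM in wild type in 0.1% serum, and 7.49 CPM in ΔLEO1 against 6.49 and 5.81 CPM in 10% serum. NCOR1, a nuclear receptor corepressor, held 4.80 and 4.74 CPM against 3.93 and 2.94 CPM in 0.1% serum. These values are the highest of many and rest on 7 libraries that all windows share, and they are given as a description of likeness only.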

How the data were processed

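ChIP and input DNA were sequenced in 8 groups of 2 libraries. The authors deposited raw read counts, whole numbers with no scaling, for 272902 windows reaching 1 kb to each side of a TSS and for 16092 peak regions. The submitters' processing notes name bcl2fastq 2.20.0.422, STAR 2.7.10a, HOMER and the builds hg38 and dm6, and the methods name csaw. Fly spike-in scaling was not used here, and duplicate handling is not given in the sources used here.

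edgeR 4.0.16 in R 4.3.3 (quasi-likelihood F-test, two-sided) was fitted to all windows, with 7 ChIP libraries in 1 fit, 8 inputs in another and 1 coefficient per group. Windows were kept by filterByExpr (minimum count 10), totals were scaled by TMM, the prior count was 2, and a Benjamini-Hochberg adjusted p under 0.05 was called. Standard errors were the absolute fitted log2 fold change divided by the square root of the F statistic. The prior count shrinks that fold change but does not shrink F. The errors are therefore approximate, too small on few reads and unreliable where the fold change is near 0. DESeq2 1.42.0 and other settings were alternatives. The code was tested on simulated counts. TMM centres the fold changes, so a genome-wide shift of the mark cannot be seen. Floors (3 counts) cover counting error only.

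The genes, the distance of 200 kb, the pathway lists and the motifs were chosen with earlier results of these data known. Neighbour and pathway genes were read at the window with the most ChIP reads, and the leading FADS1 window has the smallest p in the 0.1% serum genotype contrast. Named pathway genes were those called and the 2 highest and 2 lowest in 0.1% serum, and examples by list were chosen after their values were seen. The 5 genes most alike were taken outside the region.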

Additional observations from a re-analysis of the deposited data

Results flagged for a closer look

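The genotype difference in ChIP took opposite directions in the 2 sera, with no overlap between the libraries, at 6 FADS3 windows, 1 FADS2 window and 10 windows over the starts of FADS1 and FADS2. How often this occurs over all windows was not counted, so nothing is read from these counts. In each case 10% serum had 1 ΔLEO1 library. Only FADS3 ENST00000533676 and FADS2 ENST00000520145 passed the filter on low counts, so the difference between the sera was fitted for these alone. It is given below as an effect size, and the other windows, on few reads, had no fit. Windows of 1 stretch share reads and are not separate observations.

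At FADS3 ENST00000533676 ΔLEO1 held 7.46 and 5.93 CPM against 4.53 and 4.78 CPM in wild type in 0.1% serum, and 3.74 CPM against 4.96 and 4.52 CPM in 10% serum. The genotype difference was larger in 0.1% serum by 0.78 ± 0.59 on the log2 scale. At FADS2 ENST00000520145, whose levels are given above, it was larger by 0.76 ± 0.60.

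At the FADS3 start, ENST00000414624 held 2.40 and 2.37 CPM in ΔLEO1 against 0.906 and 1.10 CPM in 0.1% serum, and 0.936 CPM against 1.15 and 2.58 CPM in 10% serum. The ΔLEO1 minus wild-type difference of means was 2.31 CPM larger in 0.1% serum there, on 2 to 9 reads per library. The overlapping windows gave 2.51 (ENST00000278829), 1.97 (ENST00000525588), 2.85 (ENST00000527697) and 2.68 CPM (ENST00000529525).

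Over the starts of FADS1 and FADS2 the direction was the other way, with ΔLEO1 below wild type in 0.1% serum and above it in 10% serum. At FADS1 ENST00000540767 ΔLEO1 held 0.266 and 0 CPM against 0.604 and 1.10 CPM in 0.1% serum, and 2.34 CPM against 1.15 and 0.968 CPM in 10% serum. The difference of means was -2.003 CPM in 0.1% serum relative to 10% serum there, at ENST00000466716 and at ENST00000517839. It was -2.06 CPM at ENST00000424501 and ENST00000491310, -1.98 CPM at ENST00000522056 and ENST00000522639, -1.93 CPM at ENST00000257261, -1.87 CPM at ENST00000541683 and -1.86 CPM at ENST00000544309. These windows overlap and held 0 to 6 reads per library.

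In input, FADS3 ENST00000527379 held 3.37 and 3.77 CPM in ΔLEO1 against 4.22 and 4.36 CPM in 0.1% serum, and 5.32 and 4.36 CPM against 2.64 and 4.33 CPM in 10% serum. The difference between the sera was -0.56 ± 0.40 on the log2 scale and was not called (edgeR Benjamini-Hochberg adjusted p = 0.836).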

How the results depend on the processing

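The log2 fold change of the leading FADS1 window in ChIP in 0.1% serum kept its direction in all 12 alternatives, between 1.15 and 2.11, the extremes coming from leaving out a wild-type library. It also kept its direction in 10% serum (0.15 to 0.50 without a wild-type library, and the rest between 0.17 and 0.50) and between sera in wild type (-1.09 to -0.14 without 1 library). The number of FADS windows called in ChIP in 0.1% serum fell from 2 to 0 with all 8 ChIP libraries, with ChIP over input and with DESeq2, and was 0 to 2 with 1 library left out. Over the whole table the calls in that contrast were 0 with all 8 ChIP libraries (6103 at an unadjusted p under 0.05), 0 with DESeq2 (2031), 27 with ChIP over input, 47 to 145 with 1 library left out, and 2297 with totals of the peak table as library sizes. That scaling moved the median of all windows to 0.27 and the split from 130 higher and 424 lower to 2152 higher and 145 lower, and the leading window then gave 1.80. In 10% serum 47 windows became 0 with all 8 ChIP libraries (5162 at an unadjusted p under 0.05), 0 with DESeq2 (1839), 14 with ChIP over input and 24 to 27 without a library. Between sera in wild type 431 became 5, 0 (DESeq2, 1602), 0 (ChIP over input, 19825) and 7 to 157.

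In input in 10% serum the leading window was lower in ΔLEO1 except without wild-type replicate B, where it gave 0.0153 (lowest without 1 library -0.84). FADS windows called ranged from 0 to 8 and all windows called from 0 to 1368 without 1 library, and DESeq2 called 0. In 0.1% serum input calls were 0 to 13 without 1 library. The causes were not tested. The replicate block gave 1.49 for the leading window and 573 windows called. Deviations of libraries with the same letter correlated at -0.002 to 0.11 over windows, and the letters were not treated as pairs. The ChIP over input ratio of means was 2.79, 2.84 without TMM and 2.79 with inputs of the same letter (paired). Of 551 other values, 13 moved by more than the spread between replicates and 538 did not. With 0 to 51 ChIP reads per FADS window, counting error limits every ChIP value.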
